A study of Rattus norvegicus with 6 samples.

Results

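The genes described here encode the extracellular matrix of the liver, the enzymes that crosslink and degrade it, and proteins that mark hepatic stellate cells and their activation. They were chosen by name as a list of 43 genes, by a rule that uses no measured value but with earlier results of these data known, among 15284 gene symbols carried by the array. A RefSeq accession on the array mapped to 36 of them. Of these, 32 were measured: their probes exceeded background clearly in each of the 3 animals of one or both groups, and for these 32 in fact in all 6. The probes of Lum (lumican), Postn (periostin), Thbs1 (thrombospondin 1) and Mmp9 (a gelatinase) were not well above background on any of the 6 arrays. No probe could be matched to Col4a2, Col5a2, Col6a1, Col6a3, Lox, Lama2 and Lamb1, which are not described further.

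The study measured liver RNA of male Sprague-Dawley rats on 1-colour Agilent arrays, 1 array per animal. One group of 3 rats received corn oil, the vehicle. The other group of 3 received bromodichloromethane, a by-product of water disinfection, at 200 mg/kg/day. The rats were bought at 5 weeks of age, and all shared the strain, sex, basal diet and supplier. The labels name 28 days as the measurement time in the design text but 9 weeks of dosing in the protocol, so the length of exposure is unsettled. The question is whether liver gene expression differs between the chemical and its vehicle.

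In the liver, hepatic stellate cells lie between the hepatocytes and the sinusoidal endothelium and store vitamin A as retinyl esters. After injury they can turn into contractile myofibroblasts that express smooth muscle actin and secrete fibrillar collagen, a change driven mainly by transforming growth factor beta and platelet-derived growth factor. The amount of matrix then depends on synthesis, on crosslinking by lysyl oxidases, and on the balance of matrix metalloproteinases with their tissue inhibitors (TIMPs). Fibronectin differs from most of these proteins in that hepatocytes also secrete it, as the plasma form.

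The stretches upstream of 2 members are shown because one, Ccn2 (connective tissue growth factor), was among the genes that changed, whereas the other, Acta2 (alpha smooth muscle actin), the standard marker of activated stellate cells, was not. Both are the 250 bases before the annotated gene start in RefSeq, build GRCr8, on the minus strand, at chr1:22624615-22624864 for Ccn2 and chr1:241172504-241172753 for Acta2. The arrays were designed on an earlier build. Capitals mark exact matches to the motifs searched on both strands. These were TATAAA (the TATA box), GGAATG (the core bound by TEAD factors), GGGCGG (the GC box), TGANTCA (the AP-1 site) and CAGACA (a SMAD-binding element). The last was CCWWWWWWGG, with W for A or T (the CArG box of serum response factor).
Ccn2: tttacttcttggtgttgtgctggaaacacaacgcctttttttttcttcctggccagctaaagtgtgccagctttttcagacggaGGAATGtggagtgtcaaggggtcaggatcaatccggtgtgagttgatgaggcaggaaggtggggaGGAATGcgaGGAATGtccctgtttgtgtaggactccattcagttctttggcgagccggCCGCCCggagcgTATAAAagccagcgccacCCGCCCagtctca
Acta2: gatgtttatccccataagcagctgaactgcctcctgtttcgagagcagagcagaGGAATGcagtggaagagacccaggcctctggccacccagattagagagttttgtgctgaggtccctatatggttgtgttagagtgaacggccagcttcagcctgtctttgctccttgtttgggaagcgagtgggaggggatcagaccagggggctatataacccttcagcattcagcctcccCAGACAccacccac
The Ccn2 stretch held 3 copies of GGAATG, which start 166, 101 and 92 bases before the gene start, and 1 copy of TATAAA, which starts 31 bases before it. It also held 2 copies of GGGCGG on the opposite strand. The Acta2 stretch held 1 copy of GGAATG and 1 of CAGACA. Of 33469 promoters of that length, 12.1% held GGAATG at least once, 0.081% held it 3 times or more, 12.9% held TATAAA, 30.5% GGGCGG, 17.2% CAGACA, 6.3% TGANTCA and 1.5% a CArG box. GGAATG was present in 7 of the 27 member promoters listed. These matches describe the letters only. Near matches, such as ccctatatgg and ctatataa in the Acta2 stretch and cagacg in the Ccn2 stretch, were not counted. The lack of an exact match therefore does not show that a box or element is absent.

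Signals are given as scaled signal, the processed fluorescence of a probe divided by the 75th percentile of its array, so that 1 is the 75th percentile. That percentile lay between 670 and 825 fluorescence units, and between 61.3% and 66.9% of the probes of an array were well above background. The hepatocyte markers bear out the labelled tissue, with all 12, albumin among them, well above background on every array. Per the file headers, slide 1 carried all corn oil animals together with treated replicate 1 and slide 2 carried the remaining treated animals, so treatment and slide overlap in part. Log2 fold changes are treated minus corn oil. Their adjusted p-values come from limma with Benjamini-Hochberg adjustment over all 28995 features, SE is the moderated standard error, and a call is an adjusted p below 0.05. The number of animals limits the precision, and in bulk tissue fewer cells of a type and less RNA per cell cannot be told apart.

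Among the 32 measured members, 3 fell in treated livers and none rose. Those that fell were Fn1 (fibronectin), Eln (elastin) and Ccn2, each by less than 1.5-fold. The other 29 did not pass, among them every fibrillar collagen, Acta2, both PDGF receptors and the TIMPs. Across all features 9.36% were called, 3.41% as lower and 5.96% as higher, and 7.92% of the features with a gene symbol were called. Log2 fold changes of the members ran from -0.57 to 0.54, with a median of -0.11 beside 0.0014 over all features. There were 22 members below 0 and 10 above it. Without adjustment 8 of the 32 members had a p under 0.05, as did 27.5% of all features.

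No value of one group reached the range of the other for 10 of the 32 members, against 34.4% of all features. Of these, 8 were lower in every treated animal (Col14a1, Col18a1, Fn1, Fbn1, Eln, Sparc, Reln and Ccn2), where 16.0% of features were lower, and Timp1 and Vim were higher, where 18.4% of features were higher. The precision was such that the 95% interval of the fold change lay within 2-fold in either direction for 30 members, all but Loxl1 and Timp2. It lay within 1.5-fold for 15 members, among them Col1a1, Col1a2, Col3a1, Acta2, Pdgfrb, Mmp2 and Mmp14. Over all features those shares were 83.0% and 53.0%.

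**Figure D1:**
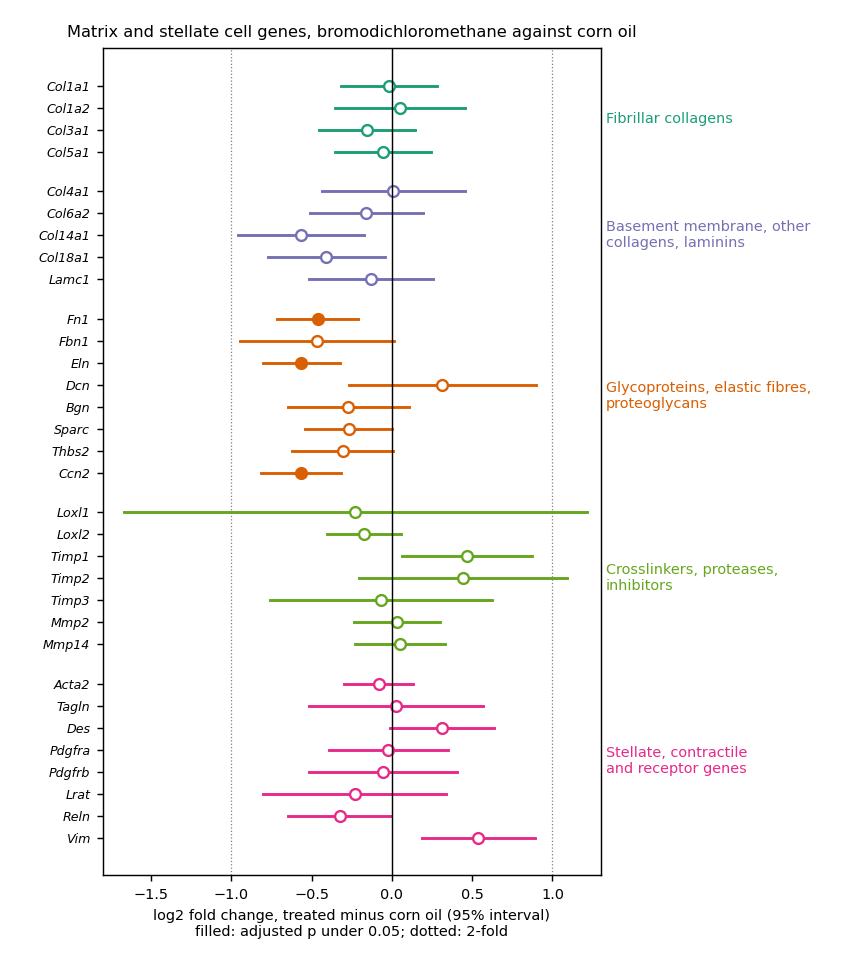
Log2 fold change of each of the 32 measured members with its 95% interval (n = 3 per group), by role; filled points passed an adjusted p of 0.05 and dotted lines mark 2-fold. The filled points, Fn1, Eln and Ccn2, are all to the left of 0, and the intervals of Loxl1 and Timp2 reach past 2-fold.

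Fn1, which encodes an adhesive glycoprotein laid down early in scar tissue, had scaled signals of 136, 127 and 124 in the corn oil animals and 84.7, 103 and 94.5 in the treated animals. Every treated animal was below every corn oil animal. The means were 129 ± 5.99 and 94.0 ± 9.04 (SD, n = 3 each), a 1.38-fold fall (log2 fold change -0.46, SE 0.10, adjusted p = 0.045). The array carried 3 Fn1 probes, and all had a negative fold change. A second bright probe gave -0.55 (adjusted p = 0.025 with every probe tested on its own), and a dimmer one gave -0.46 and did not pass (adjusted p = 0.25). With every probe tested on its own, 8.52% of 39027 probes were called.

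Eln, the core protein of elastic fibres in portal tracts and vessel walls, had scaled signals of 0.613, 0.657 and 0.631 in corn oil animals and 0.414, 0.475 and 0.400 in treated animals. The groups did not overlap. The means were 0.634 ± 0.0224 and 0.430 ± 0.0399 (SD, n = 3 each), a 1.48-fold fall (log2 fold change -0.56, SE 0.10, adjusted p = 0.026). Its probes disagreed, since the 2 dimmer probes of the same transcript gave 0.11 and 0.0086 (adjusted p = 0.75 and 0.98), and the mean over the 3 probes gave -0.15 (adjusted p = 0.43).

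Ccn2, a matricellular protein induced by transforming growth factor beta and by stretch, had a single probe. Its scaled signals were 0.346, 0.381 and 0.393 in corn oil animals and 0.231, 0.273 and 0.255 in treated animals. Again no treated animal reached the corn oil range. The means were 0.373 ± 0.0244 and 0.253 ± 0.0211 (SD, n = 3 each), a 1.48-fold fall (log2 fold change -0.57, SE 0.10, adjusted p = 0.028).

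The calls of Fn1, Eln and Ccn2 are close to the threshold, and each ended without any one of the 6 animals (the adjusted p ranged over 0.087 to 0.12, 0.059 to 0.088 and 0.052 to 0.092). On slide 1 alone the log2 fold changes were -0.61, -0.61 and -0.69, and the same with slide as a block. Both fits set treated replicate 1 alone against the 3 corn oil animals, with the spread taken from the corn oil animals and, in the block fit, also from the treated pair on slide 2, and none passed (adjusted p = 0.17, 0.16 and 0.16 on slide 1, and 0.087, 0.10 and 0.080 with the block). All 3 falls are relative to the 75th percentile of the arrays. With scaling by spiked-in control transcripts, which moves the median of all features to 0.49, Fn1 was at 0.02, Eln at -0.08 and Ccn2 at -0.08 and none passed (adjusted p = 0.93, 0.72 and 0.73). Under that scaling 7 members passed, all of them higher (Timp1, Timp2, Mmp2, Mmp14, Des, Pdgfra and Vim), where 44.1% of all features passed. Higher calls made up 63.6% of all calls with the scaling used here, 74.2% with median centring and 97.6% with spike-in scaling.

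**Figure D2:**
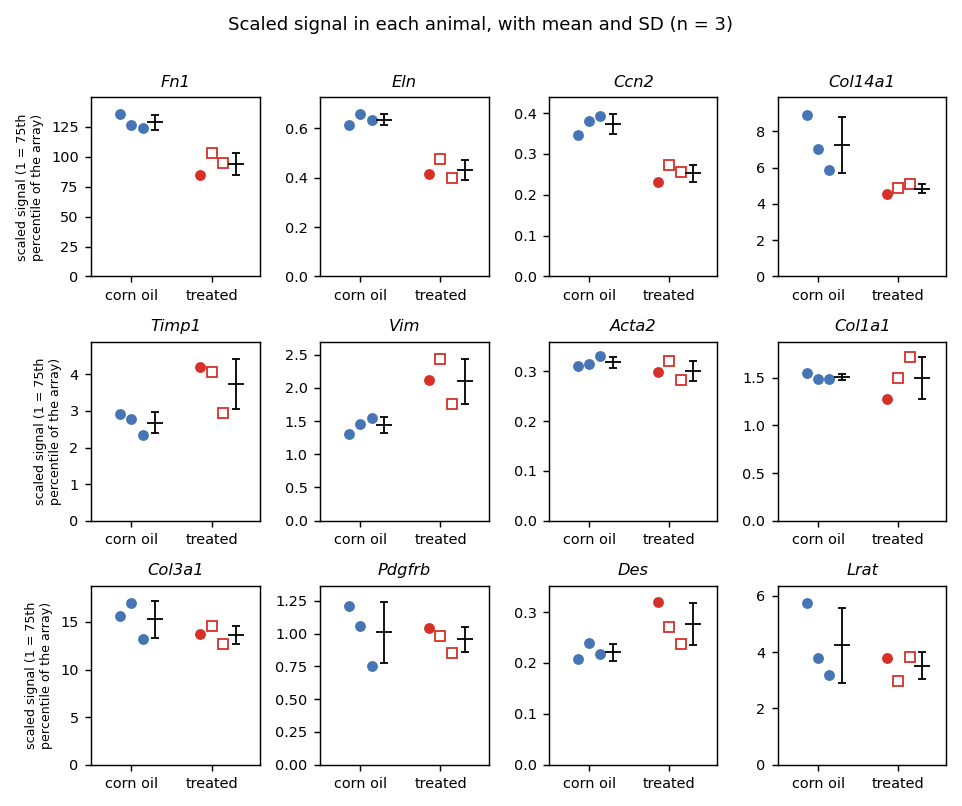
Scaled signal (1 = 75th percentile of the array) of 12 members in each animal, with the mean and SD of each group (n = 3); filled points lie on slide 1 and open squares on slide 2. The treated animals of Fn1, Eln and Ccn2 are all below the corn oil animals, whereas those of Acta2, Col1a1, Col3a1 and Pdgfrb overlap with them.

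None of the 4 fibrillar collagen genes measured passed, and their log2 fold changes lay between -0.16 and 0.05. Col1a1, a chain of type I collagen, the main collagen of scars, had scaled signals of 1.55, 1.49 and 1.49 in corn oil animals and 1.28, 1.5 and 1.72 in treated animals. The treated animals lay on both sides of the corn oil animals (log2 fold change -0.02, 95% interval -0.32 to 0.28, adjusted p = 0.94). Its partner chain Col1a2 was at 11.6, 11.1 and 8.28 in corn oil animals and 9.21, 11.8 and 10.9 in treated animals, with overlapping groups (0.05, 95% interval -0.35 to 0.45, adjusted p = 0.88). Col3a1, the type III chain that accompanies type I in early scars, was at 15.6, 17.0 and 13.2 against 13.7, 14.6 and 12.7, again with overlap (-0.16, 95% interval -0.45 to 0.14, adjusted p = 0.46). Col5a1, which sets the diameter of collagen fibrils, stood at -0.06 (SE 0.12, adjusted p = 0.81).

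The 5 measured genes of basement membrane and other collagens and laminins also did not pass. Col14a1, a collagen that binds the surface of fibrils, had scaled signals of 8.92, 7.01 and 5.87 in corn oil animals and 4.57, 4.88 and 5.07 in treated animals. The groups did not overlap, and the corn oil animals were the more widely spread (log2 fold change -0.57, SE 0.16, adjusted p = 0.083). All 4 probes of Col14a1 had a negative fold change, from -0.30 to -0.88. Col18a1, the precursor of endostatin, was at 31.4, 37.3 and 32.0 in corn oil animals and 30.7, 23.3 and 22.5 in treated animals, where the treated animal on slide 1 was close to the corn oil animals and those on slide 2 were lower (-0.41, SE 0.15, adjusted p = 0.14, and -0.13 on slide 1 alone). Col4a1, a chain of the basement membrane network, stood at 0.0093 (SE 0.18), Col6a2, of microfibrillar type VI collagen, at -0.16 (SE 0.14), and Lamc1, a laminin chain, at -0.13 (SE 0.16), with adjusted p-values of 0.98, 0.52 and 0.65.

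Among adhesive glycoproteins, elastic fibre proteins and proteoglycans, 8 of 11 genes were measured, and these hold all of the calls. Besides Fn1, Eln and Ccn2, the genes Fbn1 (fibrillin, the scaffold of elastic fibres), Thbs2 (a thrombospondin), Bgn (biglycan) and Sparc (osteonectin) had log2 fold changes of -0.47, -0.31, -0.27 and -0.27, with adjusted p-values of 0.19, 0.19, 0.32 and 0.18. Fbn1 owed much of its difference to treated replicate 3, at a scaled signal of 0.933 against 1.52 and 1.44 in its group mates, and was at -0.25 without that animal. A second probe of Thbs2 gave -0.61 and came close to the threshold (adjusted p = 0.052 with every probe tested on its own). The second probes of Bgn and Fbn1 gave smaller falls, of -0.0084 and -0.19 (adjusted p = 0.98 and 0.42 in the same test). Dcn (decorin, a small proteoglycan that binds collagen and transforming growth factor beta) was the one gene of the group above 0, at 0.32 (SE 0.24, adjusted p = 0.45), with treated replicate 2 at 1.41 and its group mates at 0.776 and 0.974.

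None of the 7 measured genes for crosslinking enzymes, matrix proteases and their inhibitors passed. Timp1, the inducible inhibitor of metalloproteinases, had scaled signals of 2.91, 2.78 and 2.35 in corn oil animals and 4.20, 4.08 and 2.95 in treated animals. Treated replicate 3 was only just above the highest corn oil animal, so the groups did not overlap (log2 fold change 0.47, SE 0.17, adjusted p = 0.13). Timp2 was at 0.44 (SE 0.27, adjusted p = 0.34), with corn oil replicate 1 at 5.75 and the other arrays between 10.3 and 12.7, and the log2 fold change was 0.13 without that animal. Timp3, which stays bound to the matrix, was at -0.07 (SE 0.29, adjusted p = 0.90).

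Mmp2, a gelatinase made by stellate cells, and Mmp14, the membrane protease that activates it, had log2 fold changes of 0.03 (95% interval -0.24 to 0.30) and 0.05 (95% interval -0.23 to 0.33), with adjusted p-values of 0.88 and 0.82. Loxl2, a lysyl oxidase that crosslinks collagen, was at -0.17 (SE 0.09, adjusted p = 0.30). Loxl1, which acts mainly on elastin, had the widest interval of the list, from -1.67 to 1.21. Corn oil replicate 2 stood at 1.84, whereas the other 5 animals lay between 0.371 and 0.636. Its second probe was also highest in that animal, at 0.387 beside 0.0668 to 0.132 in the others, and without that animal the log2 fold change of Loxl1 was 0.50 in place of -0.23.

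The 8 genes of stellate cells, contractile proteins and receptors were all measured, and none passed. Acta2 had scaled signals of 0.310, 0.315 and 0.331 in corn oil animals and 0.299, 0.322 and 0.283 in treated animals, with overlapping groups. Its log2 fold change was -0.08 (SE 0.09, 95% interval -0.30 to 0.13, adjusted p = 0.60), the smallest SE of the list. Tagln (transgelin), an actin-binding protein of contractile cells, was at 0.03 (SE 0.22, adjusted p = 0.95).

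Des (desmin), the intermediate filament of rat stellate cells, was at 0.207, 0.239 and 0.217 in corn oil animals and 0.320, 0.271 and 0.238 in treated animals. Treated replicate 3 lay just within the corn oil range (log2 fold change 0.31, SE 0.13, adjusted p = 0.19). Vim (vimentin), the filament of mesenchymal cells and leukocytes, was at 1.31, 1.46 and 1.54 in corn oil animals and 2.12, 2.43 and 1.75 in treated animals. It was higher in 3 of 3 treated animals but did not pass (0.54, SE 0.14, adjusted p = 0.071), and with trend and robust options in the variance model it did (adjusted p = 0.045).

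Pdgfrb, the receptor through which platelet-derived growth factor drives stellate cells to divide, was at 1.21, 1.06 and 0.756 in corn oil animals and 1.04, 0.981 and 0.852 in treated animals. All treated animals lay within the corn oil range (log2 fold change -0.06, SE 0.19, adjusted p = 0.88). Pdgfra, the alpha receptor, was at -0.02 (SE 0.15, adjusted p = 0.94). Lrat, the enzyme that makes retinyl esters and marks quiescent stellate cells, was at 5.75, 3.78 and 3.20 in corn oil animals and 3.78, 2.97 and 3.82 in treated animals, where only corn oil replicate 1 stood apart (-0.23, SE 0.23, adjusted p = 0.57). Reln (reelin), another stellate cell marker, was at -0.33 with its brightest probe (SE 0.13, adjusted p = 0.18), but its other 2 probes gave -0.02 and 0.0077.

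Animals of a group differed across the list as a whole. Corn oil replicate 3 had the lowest signal of its group for 22 of the 32 members, and its median deviation from the corn oil mean was -0.17 on the log2 scale, beside 0.06 for each of the other two. Treated replicate 3 was the lowest of its group for 17 members, with a median deviation of -0.22, and treated replicates 1 and 2 were at -0.13 and -0.05. By this median, corn oil replicate 3 lay between treated replicates 1 and 3. Of the 19 members with several probes, 13 had fold changes of 1 sign over all of them and 6 had both signs.

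**Figure D3:**
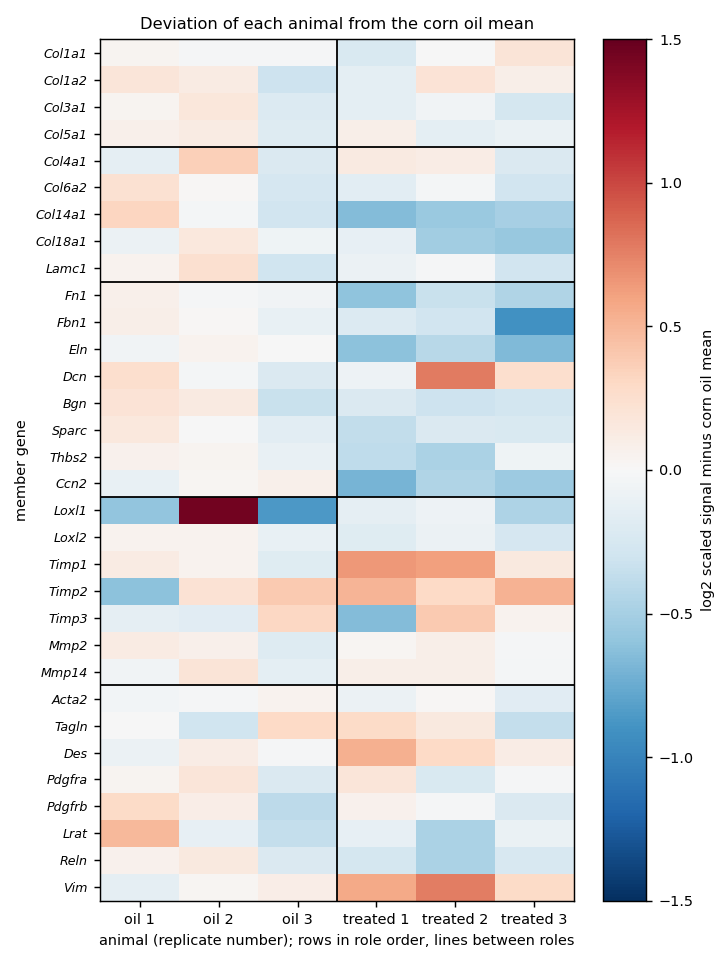
Log2 scaled signal of each member in each animal minus the mean of the corn oil animals, with rows in role order. The treated columns are blue for Fn1, Eln, Ccn2 and Col14a1 and red for Vim and Timp1; corn oil replicate 3 is pale blue in most rows, and Loxl1 stands out in corn oil replicate 2.

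Of 105 other measured genes of the matrix pathway, in 8 lists outside the 43, 8 rose and 2 fell, a share of 9.52% beside the 9.36% of all features. Of 17 measured ligands, receptors and SMADs of transforming growth factor beta, 1 rose, Ltbp2, a latent-factor binding protein of elastic fibres, at 1.40 on the log2 scale (adjusted p = 0.035, SE 0.28). The median of the list was 0.01. Of 15 measured targets of that pathway, 2 rose, Fstl3, a follistatin-like inhibitor of activins, by 0.96 (SE 0.20, adjusted p = 0.041) and Tpm1, a tropomyosin, by 0.69 (SE 0.12, adjusted p = 0.025), with a list median of 0.10. Fstl3 was well above background in only 1 of the 3 corn oil animals, and with normexp background correction it was at 0.19 and did not pass (adjusted p = 0.20).

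Among 14 measured collagen processing enzymes P4hb, a subunit of prolyl hydroxylase that also folds other secreted proteins, rose by 0.64 (SE 0.12, adjusted p = 0.030), and the list median was -0.17. Among 9 measured PDGF ligands and stellate cell growth factors and their receptors, Pdgfa, a ligand of Pdgfra, rose by 0.88 (SE 0.14, adjusted p = 0.022) and Ednrb, an endothelin receptor, by 0.58 (SE 0.13, adjusted p = 0.044). Among 13 measured integrins and matrix receptors, Cd44, the hyaluronan receptor, rose by 1.37 (SE 0.17, adjusted p = 0.013). Mfap4, a microfibril-associated protein, was the 1 gene of 15 further basement membrane and elastic fibre genes that passed, and it fell by 0.54 (SE 0.10, adjusted p = 0.029). Prelp, a small proteoglycan of basement membranes, was the 1 of 13 matricellular proteins and proteoglycans, and fell by 0.64 (SE 0.13, adjusted p = 0.037). With spike-in scaling Mfap4 was at -0.06 and Prelp at -0.16, and neither passed (adjusted p = 0.79 and 0.46). With the mean over probes Ednrb was at 0.49 and Prelp at -0.58, and neither passed (limma adjusted p = 0.079 and 0.059).

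Of 12 further matrix proteases and inhibitors measured, 1 passed. It was Mmp12, the macrophage elastase, which clearly exceeded background in only 2 corn oil animals and passed the filter through the treated group, with scaled signals of 0.0221, 0.0474 and 0.0307 in corn oil animals and 0.728, 0.921 and 0.440 in treated animals. No treated animal came near the corn oil range (log2 fold change 4.39, SE 0.37, adjusted p = 0.0048), and the size of the fold depends on the dim corn oil signals. It was 4.18 with dim signals raised to a common floor and 2.59 with normexp background correction, and passed in both (adjusted p = 0.0051 and 0.0017).

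Markers of other cells that express these genes were measured beside them. Of 14 stellate cell markers none passed, and their summed scaled signal was 88.0 to 171 in corn oil animals and 113 to 119 in treated animals. With spike-in scaling 4 of them passed, all higher, where 44.1% of all features passed. Of 6 portal fibroblast markers Eln and Mfap4 fell, of 7 smooth muscle markers Myocd, a coactivator of contractile genes, fell by 0.62 (SE 0.14, adjusted p = 0.045), and of 8 endothelial markers Lyve1, a hyaluronan receptor of the sinusoids, fell by 0.56 (SE 0.11, adjusted p = 0.030). Hepatocyte markers had 2 of 12 lower, Cps1 and Serpina1, and a median of -0.26, and their summed signal was 6013 to 6759 in corn oil animals and 5005 to 5735 in treated animals. With spike-in scaling none of these falls passed: Lyve1 was at -0.07, Myocd at -0.14, Cps1 at -0.13 and Serpina1 at -0.02 (adjusted p = 0.73, 0.50, 0.45 and 0.94), and the hepatocyte median was 0.23. Myocd also did not pass with normexp, median centring or quantile normalization (adjusted p = 0.082, 0.055 and 0.051), nor Serpina1 with quantile normalization (-0.23, adjusted p = 0.145).

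Markers of recruited and lipid-associated macrophages, in contrast, had 4 of 11 members that rose and none that fell, with a median of 0.87. Of all features 5.96% were called as higher. With the filter on all 6 arrays, which Mmp12 does not meet, 3 of these markers passed. Lgals3 (galectin 3), which the naming rule leaves out and which is named because it completes the count, was at 10.1, 9.70 and 8.28 in corn oil animals and 39.4, 26.3 and 17.6 in treated animals. Trem2 and Gpnmb, receptors of lipid-laden macrophages, rose by 2.03 (SE 0.28, adjusted p = 0.016) and 1.73 (SE 0.36, adjusted p = 0.037), and Mmp12 belongs to this list too. The summed signal of the 11 markers was 37.1 to 40.8 in corn oil animals and 59.3 to 94.0 in treated animals, which did not overlap. That sum is weighted to its brightest genes, chiefly Lgals3, Fabp5 and Cd68. The sum of 9 Kupffer cell markers was 197 to 250 in corn oil animals and 195 to 240 in treated animals, with no marker past the threshold. With spike-in scaling 9 of the 11 and 5 of the 9 Kupffer cell markers passed, all higher, where 44.1% of all features passed. The 2 list medians were then 1.35 and 0.55, beside 0.49 for all features. The macrophage markers that passed include Mmp12 and Ccr2, which were well above background on 5 and 4 of the 6 arrays. Of 10 T and NK cell markers Cd2 and Cd3e passed (adjusted p = 0.038 and 0.026), but neither was well above background in any corn oil animal, so both entered the test through the treated group alone. With dim signals raised to a common floor the log2 fold changes were 0.36 and 0.23, and neither passed (adjusted p = 0.29 and 0.30), nor did they with normexp (adjusted p = 0.13 and 0.50). With spike-in scaling 8 of the 10 T and NK cell markers passed, all higher, where 44.1% of all features passed. The list median was then 0.79, beside 0.49 for all features. Cd2 and Cd3e are among these 8, and their limit of dim corn oil signals holds under that scaling too. Bile duct and mesothelial markers had 1 member each that rose, Epcam, an epithelial adhesion protein, by 1.12 (SE 0.18) of 8 and the keratin Krt8, which hepatocytes also express, by 0.70 (SE 0.10) of 5, with adjusted p-values of 0.021 and 0.018. Of the 21 genes outside the 43 that passed in any of these lists, Lgals3 and Mmp12 also passed with slide as a block, and only Mmp12 passed in every fit that left out 1 animal. The part of these cells in the values of Vim, Timp1, Fn1 or the other members was not tested.

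**Figure D4:**
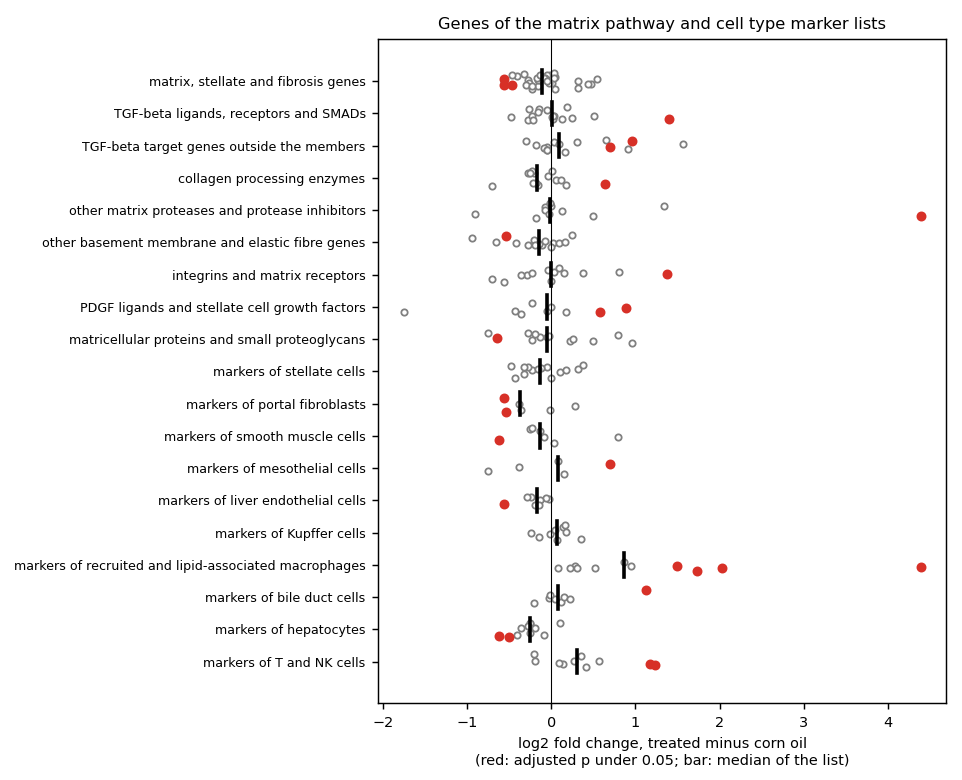
Log2 fold change of every measured gene in the 43-gene list, in other matrix pathway lists and in cell type marker lists; red points passed an adjusted p of 0.05 and black bars are list medians. The medians lie between -0.37 and 0.31 except for recruited and lipid-associated macrophages at 0.87, and the point farthest right is Mmp12 at 4.39.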

How the data were processed

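Liver RNA of 6 rats was hybridised to 1-colour arrays. The submitters' processing notes name Agilent Feature Extraction 10.7 as the authors' software. The deposited scanner files hold linear intensity per spot, background-subtracted per the file headers and not scaled between arrays. The deposited value table holds a linear ratio, from the values the processed signal over the 75th percentile of its array (at least 96.4% of probes within 1%), with column medians of 0.0953 to 0.102; it served as an alternative. The scale is linear and not centred.

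Probes were named through unversioned RefSeq accessions (GRCr8, names only); 27460 of 61657 probes matched 1 symbol, and 27 probes with outlier marks were left out. For each gene the probe with the highest mean stood among those that passed the filter. The test was limma 3.58.1 in R 4.3.3 (lmFit, eBayes), checked on simulated data. The labels give separate animals. The normexp alternative used median spot and background signals, because the files have no mean spot signal.

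The members and lists were chosen with earlier results of these data known. Given on every array were members past the threshold, members with non-overlapping groups and a log2 fold change of at least 0.5, and Acta2, Col1a1, Col1a2, Col3a1, Timp1, Lrat, Des and Pdgfrb. Each other list gave up to 3 genes past the threshold, and a list with no call gave its gene of lowest p: Lhx2 for stellate cells (log2 fold change -0.43, adjusted p = 0.072) and Cd5l for Kupffer cells (0.36, adjusted p = 0.20).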

Additional observations from a re-analysis of the deposited data

How the results depend on the processing

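The count of called features was within 1.5 times of 2715 with normexp, quantile normalization, median centring, the filter on all 6 arrays, the mean over probes, the common floor, trend and robust options, the value table and slide as a random block, and members past the threshold then numbered 2 to 4, except 1 with the mean over probes. Called features numbered 12784 with spike-in scaling, 609 without the filter, 350 with slide as a block, 120 on slide 1 alone and 353 with the replicate block, and 335 to 1232 when 1 animal was left out. Members past the threshold then numbered 7 with spike-in scaling and 0 without the filter, with slide as a block, on slide 1 alone, with the replicate block and in each fit without 1 animal, by limma; 8 members had an unadjusted p under 0.05 with all animals. In the labels, animals of the 2 groups share only a replicate number. Deviations of same-numbered animals correlated at 0.092, 0.019 and 0.12, and each correlated best with its own number. Correlations of this size cannot settle whether the animals were paired. Over 20 alternatives, 7 of the 32 members never changed sign. With spike-in scaling the sign turned for Col1a1 (0.47), Col3a1 (0.33), Col5a1 (0.43), Col6a2 (0.32), Col18a1 (0.08), Fn1 (0.02), Fbn1 (0.02), Bgn (0.21), Sparc (0.21), Thbs2 (0.18), Loxl1 (0.26), Loxl2 (0.31), Timp3 (0.41), Acta2 (0.40), Pdgfra (0.46), Pdgfrb (0.43), Lrat (0.25), Reln (0.16) and Lamc1 (0.36), and for Lhx2 (0.05). It also turned for Col1a1 (0.06), Mmp14 (-0.0049) and Pdgfra (0.00047) with normexp, for Col1a1 (0.04), Col5a1 (0.002), Pdgfra (0.04) and Pdgfrb (0.0014) with median centring, for Col1a2 (-0.0066) and Mmp2 (-0.02) with the mean over probes, and for Col1a2 (-0.15), Col5a1 (0.09), Dcn (-0.08), Pdgfra (0.18) and Pdgfrb (0.06) on slide 1 alone and with slide as a block. Without 1 animal the fold change ranged from -0.12 to 0.09 for Col1a1, -0.10 to 0.15 for Col1a2, -0.10 to 0.19 for Col4a1, -0.15 to 0.0048 for Col5a1, -0.66 to 0.50 for Loxl1, -0.41 to 0.0089 for Lrat, -0.02 to 0.15 for Mmp14, -0.06 to 0.09 for Mmp2, -0.13 to 0.08 for Pdgfra, -0.25 to 0.09 for Pdgfrb, -0.12 to 0.22 for Tagln and -0.30 to 0.22 for Timp3. Except for Fn1, none of these members had passed with the scaling used here. Pdgfra, Mmp2 and Mmp14 among them passed as higher with spike-in scaling. The causes were not tested. Dim signals limit Timp3, Mmp12, Cd2, Cd3e, Fstl3 and Ccr2.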

Other observations

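Lum, Postn, Thbs1 and Mmp9, whose proteins accompany scar tissue, did not clear background on any of the 6 arrays and have no fold. Loxl1 in corn oil replicate 2 was 1.84 in scaled signal with its bright probe and 0.387 with its dim one, both above all other animals. Actg2, the enteric smooth muscle actin, was chosen after its values were seen. It was at 3.21, 3.21 and 3.03 in corn oil animals and 6.28, 6.40 and 4.01 in treated animals. It did not pass (log2 fold change 0.79, limma adjusted p = 0.056), beside Acta2 at -0.08. With normexp, median centring and spike-in scaling Actg2 did pass (limma adjusted p = 0.0435, 0.0412 and 0.0048). Without 1 animal its limma adjusted p ranged from 0.0194 to 0.161.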
